A study of Sus scrofa with 16 samples.

Results

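Interleukins and their receptor subunits were read out in pig fat by 54 microarray probes, chosen as every non-control probe whose gene name in the scanner files begins with IL and a digit. They carry 38 gene names of the 36108 names on the array, many of which are sequence identifiers, and were taken from 43603 non-control probes. The tissue was subcutaneous fat (SCAT), taken when the pigs weighed 20 kg, from a low-RFI line (RFIneg) and a high-RFI line (RFIpl) selected on residual feed intake (RFI), and all pigs were fed ad libitum. RFI is the feed an animal eats beyond what its growth and maintenance predict. Each line had 8 pigs, each on its own array, and the sample labels number them 1 to 8 within a line. The labels give no litter, day or batch for these numbers, and replicates 1 to 4 and replicates 5 to 8 are treated below as 2 sets. The pigs' age and sex, and whether the lines carry any other known genetic difference, are not given in the sources used here.

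Interleukins are secreted proteins through which immune, stromal and fat cells signal to one another. Most bind receptors built from a private chain and a shared chain: interleukin 6 binds IL6R and then recruits IL6ST (gp130), while the receptors for interleukins 2, 4, 7, 9, 15 and 21 share IL2RG, and both arrangements activate JAK kinases and STAT factors. The interleukin 1 branch signals through MYD88 and NF-kB instead, and IL1RN blocks its receptor. In adipose tissue, interleukin 6 is made by stromal and immune cells as well as by adipocytes, and macrophages and lymphocytes in the tissue are the usual sources of many others.

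The probes are DNA strands of 60 bases. The first 30 bases, 5′ to 3′ as the scanner files list them, are shown for the interleukin 6 ligand, its receptor chains, interleukin 15 and the interleukin 2 receptor alpha chain, because the results on replicate sets turn on these genes and because agreement between separate probes of a gene is used below. The name gives the gene and the base at which the probe starts in the transcript record that the array's annotation cites, and the IL15 probe at 1257 is numbered on another record than the other IL15 probes.
IL6 start 493: agattagtaccaaagcactgatccagaccc
IL6 start 760: tccactgggcacataacttatgttgttctc
IL6 start 992: agccaggttgtttcttggagtgtgtaggct
IL6R start 1006: ctaatgaagatgatgAAGATATTTCCTCCA
IL6R start 1021: AAGATATTTCCTCCAAAGAGTCTGCAAATG
IL6ST start 2663: ccagtccagatatttcacattttgaaaggt
IL6ST start 2919: tgtaagacgaggtggctacatgcctcagtg
IL15 start 265: agtgctttctcctggagttacgcgtcattt
IL15 start 364: tatcgtccattgagtataaaactgaatctg
IL15 start 1257: gtgcataaaatactgcccaatggctcatgt
IL2RA start 1224: acttggtgggccccagacaagagacttggt
Capitals mark bases that the pair of IL6R probes have in common. These probes overlap over 45 bases and so read nearly the same stretch of the transcript, whereas the other probes shown share no stretch with another probe of their gene.

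A level below is the log2 signal of a probe minus the 75th percentile of its array, so that 0 is a signal that 75% of the array's probes do not reach. Probes hybridise with different strength, so levels are not used to rank genes against each other. On the 16 arrays, 68.7% to 80.3% of non-control spots were well above background, a call the scanner software makes by setting a spot against its local background, and 0 spots were saturated. Of 18 adipocyte markers 17 were measurable, with a mean level of 5.05 to 5.74 over the arrays, so the tissue label was matched on every array. In tissue, fewer cells of one type and less RNA per cell cannot be told apart. Array by array, 4 stood apart on other markers: low-RFI replicate 8 on skeletal muscle genes, high-RFI replicates 2 and 6 on epithelial genes and high-RFI replicate 5 on lymphocyte and macrophage genes. To a lesser degree, low-RFI replicate 6 (mean level -0.11) and high-RFI replicate 7 (-0.83) were raised on skeletal muscle genes. High-RFI replicate 7 was also raised on epithelial genes (-1.84). These arrays stayed in where the 4 were left out below.

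Of the 54 probes, 33 (61.1%) were well above background on at least 8 arrays, against 73.9% of all non-control probes. These 33 probes cover 22 of the 38 genes. On all 16 arrays 29 probes of 19 genes were well above background. The other 4 were the IL10 probe starting at 613, the IL1B probe and the IL27 probe, each on 15 arrays, and one IL2RG probe on 10. Signal was thus read in every array for only part of the family, and both ligands and receptor chains were in that part.

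Among the ligands, those well above background on at least 8 arrays were IL1A and IL1B, the agonists of the interleukin 1 receptor; IL1RN, its antagonist; IL6; IL7 and IL15, which maintain lymphocytes; IL10, an anti-inflammatory cytokine; IL16, a chemoattractant for CD4+ cells; IL17F and IL25 of the interleukin 17 family; IL18, a relative of interleukin 1; IL27; and IL29, an older name for an interferon lambda. Among the receptor chains they were IL2RA and IL2RG of the interleukin 2 receptor; IL4R and IL13RA1, which together bind interleukins 4 and 13; IL6R and IL6ST; IL10RB, shared by the receptors for interleukins 10 and 22 and the interferon lambdas; IL12RB1, shared by the receptors for interleukins 12 and 23; and IL1RAPL2, a receptor-like protein related to the interleukin 1 receptor.

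The remaining 16 genes had no probe that reached 8 arrays. For 6 of these genes no probe was well above background on any array: IL4 and IL13, the signature cytokines of type 2 helper T cells; IL12A, a subunit of interleukin 12; IL17A; IL21; and IL5RA, a receptor chain of eosinophils. The other 10 reached between 1 and 5 arrays at best. IL23A was well above background on 5 arrays, IL12RB2 and IL7R on 3, IL8 (an older name of CXCL8, the neutrophil chemokine) and IL9 on 2, and IL12B, IL1RAPL1, IL2, IL22 and IL23RA on 1. The mean level of the 21 probes under 8 arrays lay between -8.18 and -6.08, and that of the 33 kept probes between -5.95 and 2.38. The call is itself made on signal, so these ranges describe the filter and do not compare genes. Just inside the limit was the IL2RG probe with 10 arrays, and just outside it the IL23A probe with 5. For these 16 genes the arrays give no usable level, which does not show that the genes were silent.

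**Figure D1:**
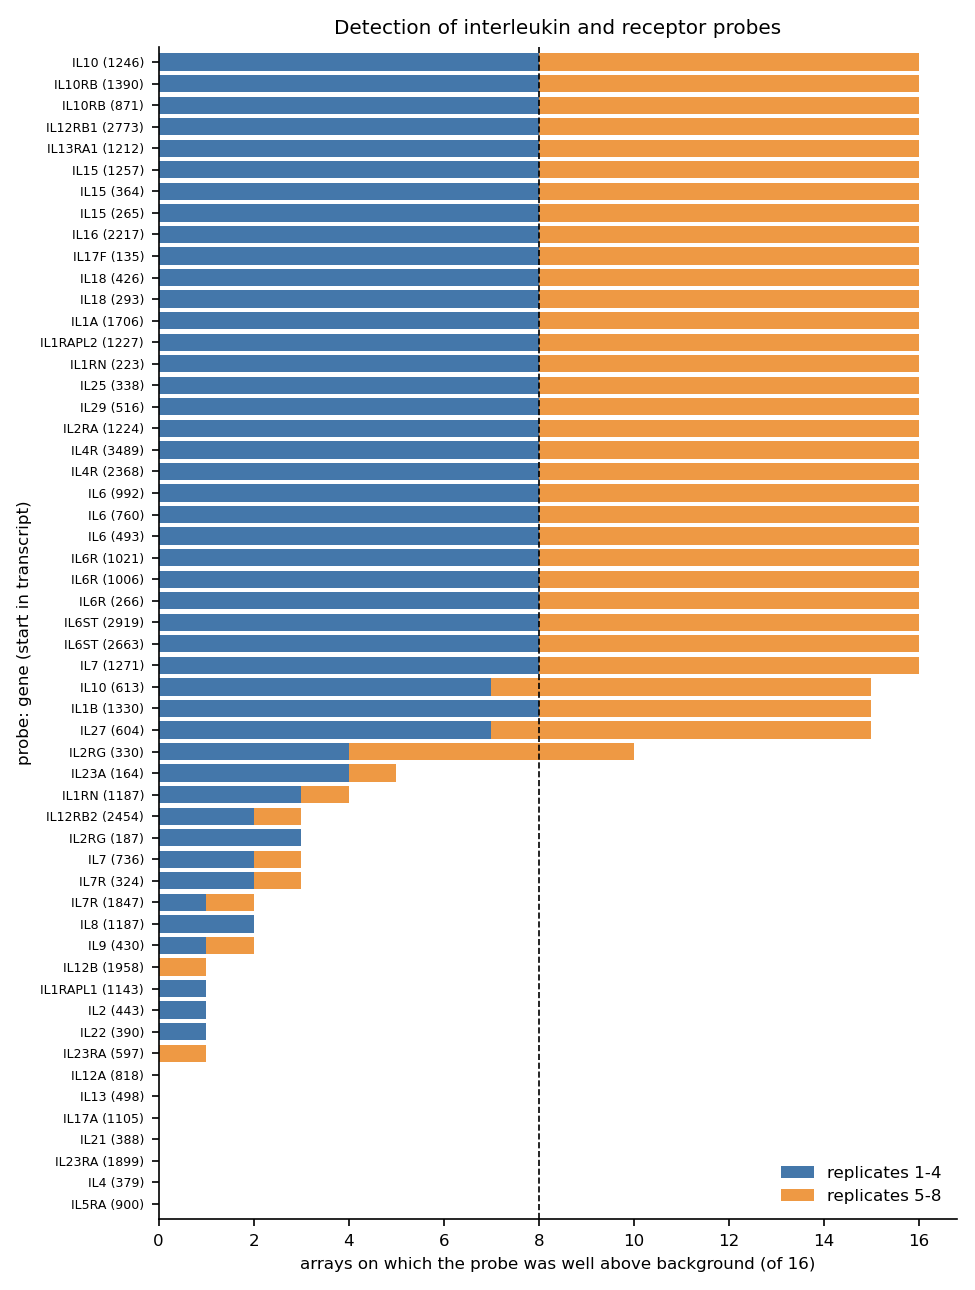
Number of arrays (x axis, of 16) on which each of the 54 probes (y axis, gene and probe start) was well above background, with replicates 1 to 4 in blue and replicates 5 to 8 in orange and a dashed line at 8 arrays. Full bars belong to 29 probes, 4 more end between 10 and 15 arrays, and the other 21 end at 5 or fewer, with 7 at 0.

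Detection depended on the probe for 3 of the 13 genes with several probes. The IL1RN probe starting at 223 was well above background on 16 arrays and the one at 1187 on 4. The IL7 probe starting at 1271 passed on 16 and the one at 736 on 3. For IL2RG, the probe starting at 330 passed on 10 arrays and the one at 187 on 3. Within such a gene the well-detected probe stands for it below.

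The lines were compared first, since the pigs were selected in opposite directions. None of the interleukin or receptor probes passed the test for a difference between the low-RFI and high-RFI pigs: 0 of 33 passed an adjusted p of 0.05 in limma with Benjamini-Hochberg adjustment over all 32097 probes kept, where 0.0% of probes passed. At an unadjusted p under 0.05 there were also 0 of 33, against 3.68% of all probes. Each alternative fit, with array weights, normexp background correction or the deposited value table among them, also called 0. The median difference, low-RFI minus high-RFI, was -0.14 over the 33 probes and -0.00012 over all probes, with 24 probes lower and 9 higher in the low-RFI line. The 95% interval lay inside a 2-fold change either way for 29 of the 33.

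IL12RB1 had the smallest p. Its level in the low-RFI pigs was -4.83 at the lowest, -4.48 at the median and -3.72 at the highest. In the high-RFI pigs the same values were -4.82, -3.83 and -2.18. The low-RFI range lay almost wholly inside the high-RFI range, which reached higher, and 7 of 8 low-RFI pigs lay under the high-RFI mean. The difference was -0.61 (SE 0.30, unadjusted p = 0.063, adjusted p = 1.0 in limma, n = 8 a line). Without high-RFI replicate 5, the array with high lymphocyte and macrophage genes, it was -0.38, and within the 4 slides it was -0.47, -1.42, -0.42 and -0.12.

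The IL6ST probe starting at 2919 ran from 1.97 through a median of 2.32 to 2.5 in low-RFI pigs and from 2.14 through 2.56 to 2.71 in high-RFI pigs. The values overlapped, and the difference was -0.22 (SE 0.12). IL1RN lay between -2.93 and -1.41 in low-RFI pigs, with a median of -1.91, and between -2.74 and -1.85 in high-RFI pigs, with a median of -2.27. Its difference was 0.31 (SE 0.19), with 7 of 8 low-RFI pigs above the high-RFI mean and 1 low-RFI pig, replicate 4, the lowest of all. IL1RAPL2 spanned -3.67 to -3.17 (median -3.45) in low-RFI pigs and -3.69 to -1.93 (median -3.40) in high-RFI pigs, and its difference was -0.26 (SE 0.20). The medians of that gene nearly coincide, and 1 high-RFI pig at -1.93 stands above all others. In the limma test none of these 3 genes passed either, each with an adjusted p of 1.0.

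**Figure D2:**
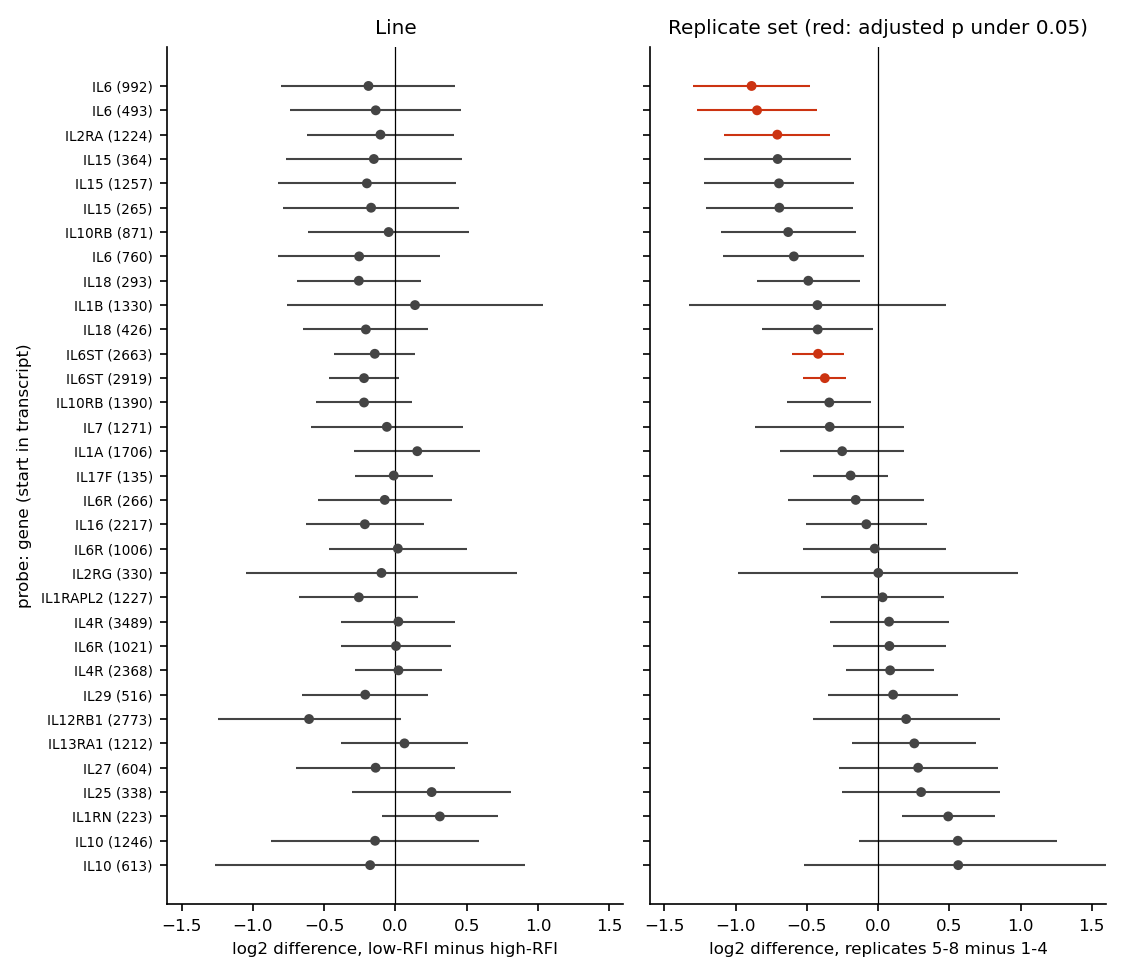
Log2 difference (x axis) of each of the 33 well-detected probes (y axis, gene and probe start), between lines on the left and between replicate sets on the right, with 95% intervals from limma. Every interval for line includes 0, while 5 probes of IL6, IL6ST and IL2RA, in red, lie under 0 for set with an adjusted p under 0.05.

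Replicates 5 to 8 were then compared with replicates 1 to 4, with line in the model, since the numbers split the arrays evenly within each line. The interleukin 6 ligand, the receptor chain IL6ST and the alpha chain of the interleukin 2 receptor were lower in replicates 5 to 8. In all, 5 of 33 probes (15.2%) passed an adjusted p of 0.05 in limma, all 5 lower, against 5.18% of all probes, 3.18% being lower and 1.99% higher. At an unadjusted p under 0.05, 14 of 33 (42.4%) passed, 13 lower and 1 higher, in 7 genes, against 23.5% of all probes (14.2% lower and 9.32% higher). The sets did not overlap for 0 of 33 probes and for 0.393% of all probes. The median difference was -0.19 over the 33 probes and -0.03 over all probes. Each slide held 4 arrays, 1 pig of each line from each set, so slide and set were not confounded.

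The interleukin 6 ligand was lower on 2 of its 3 probes. The probe starting at 992 lay between -2.61 and -1.03 in replicates 1 to 4, with a median of -1.85, and between -3.03 and -2.25 in replicates 5 to 8, with a median of -2.89. The ranges overlapped narrowly: all 8 arrays of the second set were under the mean of the first, and 5 were under its lowest array. The difference was -0.89 (SE 0.19, adjusted p = 0.0230 in limma), or 1.85-fold lower. The probe starting at 493 differed by -0.85 (SE 0.20, adjusted p = 0.0273 in limma), also with all 8 arrays under the first set's mean. The probe starting at 760 differed by -0.59 (SE 0.23) and did not pass (adjusted p = 0.139 in limma). The difference was of like size in both lines for the probe at 992, -0.86 in low-RFI and -0.92 in high-RFI pigs, and negative on each of the 4 slides, from -1.17 to -0.42.

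IL6ST, the signalling chain that interleukin 6 shares with several related cytokines, fell in step on both of its probes. The probe starting at 2919 ran from 2.42 through a median of 2.54 to 2.71 in replicates 1 to 4 and from 1.97 through 2.18 to 2.53 in replicates 5 to 8. Of the 8 arrays in the second set, 7 were below every array of the first. The difference was -0.37 (SE 0.07, adjusted p = 0.0150 in limma), or 1.30-fold lower. The probe starting at 2663 lay between 0.22 and 0.70 (median 0.47) in the first set and between -0.22 and 0.35 (median 0.03) in the second, a difference of -0.42 (SE 0.09, adjusted p = 0.0177 in limma). Only 1 array of the second set reached into the first set's range on this probe too. Within slides the difference on the probe at 2919 was -0.12, -0.54, -0.45 and -0.38.

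IL6R, the chain that binds interleukin 6 itself, did not pass on any probe. Its 3 probes differed by -0.16 (SE 0.23), -0.02 (SE 0.23) and 0.08 (SE 0.18) between the sets, and their ranges overlapped almost wholly. Whether IL6R differs from IL6 and IL6ST in its set difference was not tested.

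IL2RA, the chain that gives the interleukin 2 receptor its high affinity, lay between -4.97 and -3.92 in replicates 1 to 4, with a median of -4.19, and between -5.70 and -4.85 in replicates 5 to 8, with a median of -4.93. All 8 arrays of the second set were under the first set's mean and 3 were under its lowest array. The difference was -0.71 (SE 0.17, adjusted p = 0.0336 in limma), or 1.63-fold lower. It was negative on all 4 slides, from -1.23 to -0.30. IL2RG, the shared chain, differed by 0.00 (SE 0.46) on a probe that was well above background on only 10 arrays.

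IL15, the ligand that signals through IL2RG, had differences of -0.69 (SE 0.24), -0.71 (SE 0.24) and -0.70 (SE 0.25) on its 3 probes, none of which passed (adjusted p = 0.102, 0.0946 and 0.107 in limma). The probe starting at 265 ran from -0.54 through 0.23 to 0.49 in replicates 1 to 4 and from -1.50 through -0.57 to 0.38 in replicates 5 to 8. The high-RFI pigs of the second set were split: 2 lay among the first set and 2 below every other pig. By slide its difference was -1.51, -0.23, 0.15 and -1.18.

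**Figure D3:**
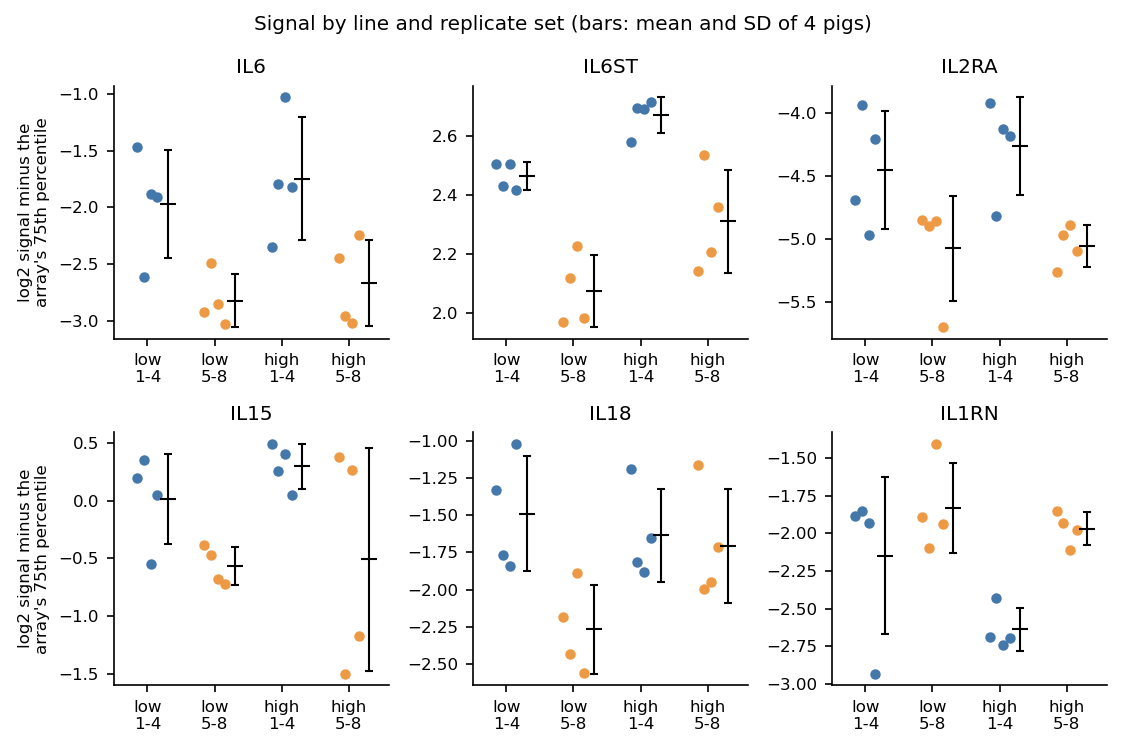
Level (y axis, log2 signal minus the 75th percentile of the array) of 6 genes in each pig by line and replicate set (x axis), with replicates 1 to 4 in blue, replicates 5 to 8 in orange and bars for the mean and SD of 4 pigs. IL6, IL6ST and IL2RA are lower in replicates 5 to 8 in both lines, while IL15 in high-RFI replicates 5 to 8 falls into 2 high and 2 low pigs.

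In the interleukin 1 branch, IL1RN was the member with the smallest p for a higher level. It ran from -2.93 through -2.56 to -1.85 in replicates 1 to 4 and from -2.11 through -1.94 to -1.41 in replicates 5 to 8. All 8 arrays of the second set were above the mean of the first, yet the ranges overlapped through 3 low-RFI pigs of the first set. The difference of 0.49 (SE 0.15) did not pass (adjusted p = 0.0708 in limma). IL18, activated by caspase 1, differed by -0.49 (SE 0.17) and -0.42 (SE 0.18) on its 2 probes, with adjusted p = 0.0976 and 0.178 in limma. IL1A and IL1B, the agonists, differed by -0.25 (SE 0.20) and -0.43 (SE 0.42) and did not reach an unadjusted p of 0.05. IL10RB differed by -0.63 (SE 0.22, adjusted p = 0.104 in limma) and -0.34 (SE 0.14, adjusted p = 0.149 in limma). The remaining probes, of IL4R, IL7, IL10, IL12RB1, IL13RA1, IL16, IL17F, IL25, IL27, IL29 and IL1RAPL2, had differences from -0.34 to 0.56 and none reached an unadjusted p of 0.05.

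The set calls depend on the arrays and on the background correction. IL6ST on both probes and IL6 on the probe at 992 passed with each single array left out. IL2RA was lost on leaving out any one of 9 arrays: low-RFI replicates 2 and 4 or high-RFI replicates 1, 3, 4, 5, 6, 7 and 8. The number of probes called rose from 5 to 9 without low-RFI replicate 3 and to 8 without high-RFI replicate 5, and fell to 3 without low-RFI replicate 4, high-RFI replicate 4 or high-RFI replicate 7. Without the 4 arrays that stood apart, 0 of 33 passed in limma, as did 0 of all probes, and the difference was -0.37 for IL6ST at 2919 (adjusted p = 0.0746), -0.84 for IL6 at 992 (adjusted p = 0.116) and -0.62 for IL2RA (adjusted p = 0.106). With normexp background correction 0 of 33 passed, and the differences of the same probes were -0.38, -0.41 and -0.07. The other IL6 probes then differed by only -0.15 (start 493) and -0.05 (start 760), so the probes of IL6 were less alike in size under that correction.

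Of 91 measured markers of cell types 6 (6.59%) passed for set in limma, against 5.18% of all probes, and 16 (17.6%) reached an unadjusted p under 0.05, against 23.5%. Of 11 neutrophil and mast cell markers 3 passed: S100A9 fell by 1.27 and MS4A2 by 0.75 in replicates 5 to 8, and PGLYRP1 rose by 2.31. At an unadjusted p under 0.05 this list had 6 of 11 lower, S100A8, S100A9, S100A12, MCT7, HDC and MS4A2, and 1 higher. S100A9 passed in 8 of 25 alternative fits and MS4A2 in 5 of 25. The mean level of that list ranged from -2.53 to -0.97 in replicates 1 to 4 and from -2.63 to -0.94 in replicates 5 to 8, and CSF3R, CXCR2, MPO and CPA3 were not measured. Of 11 macrophage markers 1 passed, LYZ, which fell by 1.88, and the list's mean level ranged from -1.02 to 0.24 and from -1.40 to 1.03, with CD68, CSF1R and MRC1 not measured. Of 15 T and NK cell markers 1 passed, KLRB1, which rose by 1.06, and the list's level ranged from -2.67 to -1.94 and from -2.97 to -0.79, with CD4, ZAP70, PRF1 and NKG7 not measured. Of 6 skin epithelium markers 1 passed, CLDN4, which rose by 3.04, and the list's level ranged from -4.55 to -1.14 and from -4.16 to 0.07, with KRT5 and KRT14 not measured. None of 17 adipocyte, 8 endothelial, 7 fibroblast, 13 muscle and 3 B cell markers passed, although 2 adipocyte markers, 3 endothelial markers and 1 fibroblast marker reached an unadjusted p under 0.05, all lower. The part of these cells in the differences of IL6, IL6ST and IL2RA was not tested.

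Line was then compared within each set, as far as 4 pigs a group allow. In replicates 1 to 4, 0 of 33 probes passed in limma (0.0% of all probes) and 1 reached an unadjusted p under 0.05, IL1RN at 0.49 (SE 0.21), against 6.34% of all probes (3.6% higher). In replicates 5 to 8, 0 passed (0.0% of all probes) and 4 reached an unadjusted p under 0.05, all lower in low-RFI pigs, against 5.79% of all probes (3.22% lower): IL12RB1 at -1.09 (SE 0.41), both IL18 probes at -0.56 (SE 0.23) and -0.52 (SE 0.23), and IL6ST at -0.24 (SE 0.10). The difference of the line difference between the sets was tested itself, and 0 of 33 passed, adjusted (0.0% of all probes) or unadjusted (6.81% of all probes), so the line differences are not shown to differ between sets.

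The smallest p for that difference belonged to IL18 and IL10. The IL18 probe starting at 426 lay between -1.84 and -1.02 in low-RFI and between -1.88 and -1.19 in high-RFI pigs of replicates 1 to 4. In replicates 5 to 8 it lay between -2.56 and -1.89 in low-RFI and between -2.0 and -1.16 in high-RFI pigs. Of the 4 low-RFI pigs of the second set 3 were under all other pigs, and the difference between sets in the line difference was -0.71 (SE 0.33, unadjusted p = 0.051, adjusted p = 0.731 in limma). The IL10 probe starting at 1246 lay between -3.71 and -1.87 in low-RFI and between -3.60 and -3.14 in high-RFI pigs of replicates 1 to 4, and between -3.63 and -2.20 and between -2.65 and -0.99 in replicates 5 to 8. Its highest value, -0.99, was high-RFI replicate 5. The difference was -1.25 (SE 0.59, unadjusted p = 0.052, adjusted p = 0.731 in limma), -0.86 without that array and -0.47 without the 4 arrays that stood apart. On the other kept IL10 probe the difference between sets in the line difference was -0.19 (SE 1.05). The larger value was thus not seen on that probe, whose SE was wide, and whether the IL10 probes differ was not tested.

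The spread from pig to pig was described next. The SD over the 16 arrays had a median of 0.47 for the 33 probes and 0.30 for all kept probes, which were not matched on signal. With 1 probe a gene, IL2RG (SD 0.94), IL1B (0.89), IL10 (0.72), IL12RB1 (0.70), IL15 (0.61) and IL6 (0.60) varied most. IL2RG ran from -7.32 through -5.96 to -4.89 in low-RFI pigs and from -7.89 through -5.46 to -4.51 in high-RFI pigs, with 6 of 16 arrays not well above background. IL1B ran from -5.49 through -4.54 to -2.02 and from -5.69 through -4.63 to -3.59, its highest value being low-RFI replicate 4. IL10 ran from -3.71 through -2.92 to -1.87 and from -3.60 through -2.89 to -0.99. For all 3 genes the lines overlapped, although the highest pig for IL1B and for IL10 lay well above the whole range of the other line.

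Separate probes of a gene mostly followed one another across pigs. There were 19 pairs of probes of the same gene, 13 of them on one transcript record and 6 on different records, as for IL4R, IL10RB and 1 IL15 probe. IL6 gave r = 0.97 (rho 0.96) between starts 493 and 992, 0.86 (rho 0.86) between 493 and 760 and 0.84 (rho 0.84) between 760 and 992. IL15 gave 0.98, 0.94 and 0.92 (rho 0.91, 0.92 and 0.88), IL18 0.95 (rho 0.92), IL6ST 0.89 (rho 0.86), IL4R 0.87 (rho 0.91, n = 14) and IL10RB 0.85 (rho 0.87). The overlapping IL6R probes gave 0.94 (rho 0.89), and the third IL6R probe gave 0.89 and 0.75 with them (rho 0.93 and 0.73). These values have permutation p adjusted over the 19 pairs of 0.0026 or less for r and rho. The IL10 probes followed each other less closely, at r = 0.60 (rho 0.74), and their highest arrays differed. In the 5 remaining pairs at least 1 probe was well above background on fewer than 8 arrays. Their r was 0.42 for IL2RG, 0.32 for IL7, -0.24 for IL1RN, -0.39 for IL7R and 0.45 for IL23RA, and none passed for r. The IL23RA pair passed for rho (0.74, adjusted permutation p = 0.0021), although its probes were well above background on 1 and 0 arrays.

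**Figure D4:**
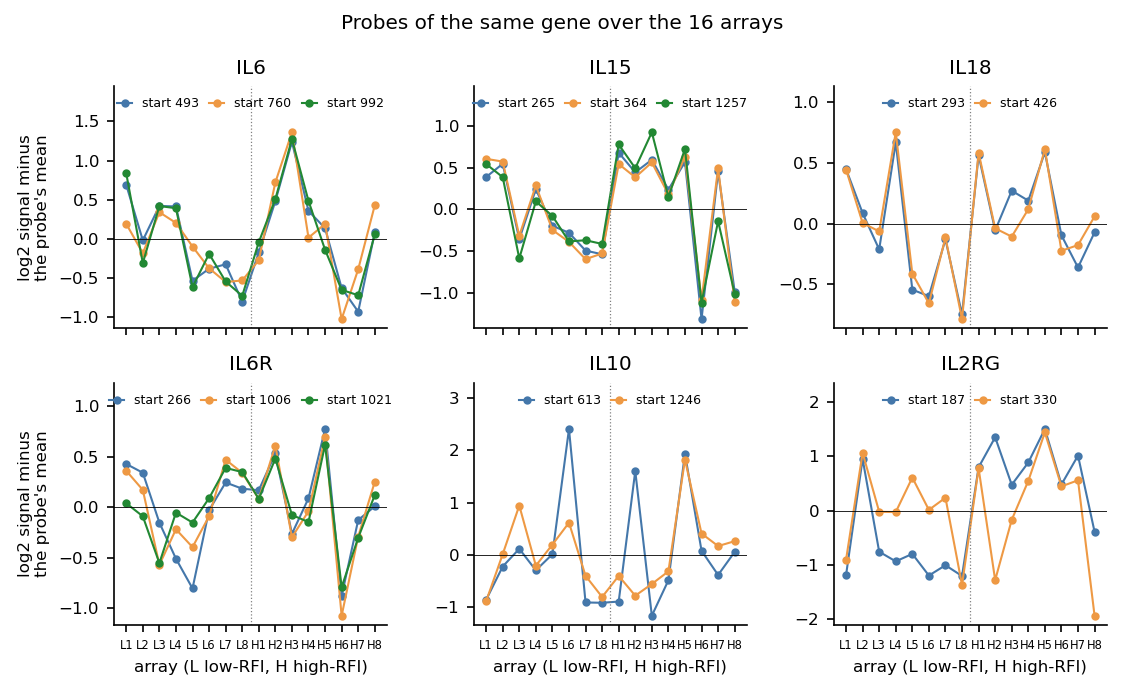
Log2 signal minus the mean of the probe (y axis) on each array (x axis) for genes with several probes, 1 colour a probe. Arrays run by replicate number, L1 to L8 for low-RFI and H1 to H8 for high-RFI. The numbers have no known order, so lines only guide the eye. The IL6, IL15, IL18 and IL6R probes mostly rise and fall on the same arrays, although the IL6R probe starting at 266 lies lower on L4 and L5. The IL10 probes part on L6 and H2 and the IL2RG probes on several arrays.

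Between different interleukin genes, no pair passed the test for covariation over the pigs. With 1 probe for each of the 22 genes there were 231 pairs, and 0 had an adjusted permutation p under 0.05 for Pearson's r (lowest 0.228) or Spearman's rho (lowest 0.164). At an unadjusted p under 0.05 there were 27 and 30 of the 231, and the share over pairs of all named genes was not counted. The median r was 0.07, against 0.01 over pairs of all 4498 named genes. Without regard to sign, the median r was 0.25 against 0.24, so these pairs were near the other genes.

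The 5 pairs with the largest r are described without being called. IL29 and IL4R gave r = 0.73 (n = 14, permutation p = 0.0034) and rho = 0.73 (p = 0.0045), with r = 0.64 without the 2 arrays farthest from the median of IL29. IL6 and IL6ST, the ligand and the signalling chain, gave r = 0.72 (permutation p = 0.0020) and rho = 0.68 (p = 0.0047), with r = 0.69 without 2 arrays. Within replicates 1 to 4 that r was 0.49, within replicates 5 to 8 it was 0.17, and with the set means taken out it was 0.30, so the relation was weaker within the sets, and both genes were lower in replicates 5 to 8. IL12RB1 and IL27 gave r = 0.72 (permutation p = 0.0041) but rho = 0.33 (p = 0.217), and r = 0.43 without 2 arrays. IL10 and IL12RB1 gave r = 0.71 (permutation p = 0.0035) and rho = 0.51 (p = 0.0484), and r = 0.36 without 2 arrays. IL16 and IL27 gave r = 0.67 (permutation p = 0.0067) and rho = 0.67 (p = 0.0057), and r = 0.35 without 2 arrays. High-RFI replicate 5 was among the arrays left out in each of the last 3 pairs. Their r was 0.38, 0.50 and 0.38 within replicates 1 to 4 and 0.86, 0.82 and 0.90 within replicates 5 to 8, the set that holds that array. For IL16 and IL27, r was 0.56 without the 2 arrays farthest on IL27. The r of IL29 and IL4R was 0.84 and 0.62 within the sets.

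For the 3 most variable genes, the named genes with the most similar pattern were searched among 4498. IL2RG was most like LCP1 (r = 0.78), ITGAL (0.78) and ITGB2 (0.76), an actin-bundling protein of white cells and a pair of leukocyte integrin chains. IL1B was most like TBK1 (0.87), a kinase of innate immunity, PGHS-2 (0.78), a prostaglandin synthase, and RAB13 (0.77). IL10 was most like CD14 (0.91), C1QA (0.89), both macrophage genes, and CST7 (0.86). Without high-RFI replicate 5 the IL10 values were 0.83, 0.79 and 0.73. These are the highest of many, over 16 arrays, and carry no test.

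IL12RB1 and IL15 covaried with cell type markers by both r and rho. The 22 genes were set against the mean level of 9 marker lists, 198 relations in all, and 4 passed an adjusted permutation p of 0.05 for r, 3 for rho and 2 for both. The share of other genes that would pass against these lists was not counted. IL12RB1 followed T and NK cell markers at r = 0.88 (adjusted permutation p = 0.00792) and rho = 0.83 (adjusted p = 0.00891), with r = 0.75 without the 2 arrays farthest on the markers and 0.66 and 0.92 within the sets. IL15 followed endothelial markers at r = 0.79 (adjusted permutation p = 0.0257) and rho = 0.84 (adjusted p = 0.00891), with 0.82 without 2 arrays and 0.90 and 0.70 within the sets. IL10 followed T and NK cell markers at r = 0.80 (adjusted permutation p = 0.0257) and rho = 0.70 (adjusted p = 0.0851), with 0.55 without 2 arrays and 0.60 and 0.88 within the sets. This was read on the IL10 probe starting at 1246, and the one at 613 was not set against the lists. IL18 ran against skeletal muscle markers at r = -0.60 (adjusted permutation p = 0.0257) and rho = -0.56 (adjusted p = 0.263), with -0.39 without 2 arrays, low-RFI replicate 8 among them. IL16 ran against B and plasma cell markers and passed for rho only, at -0.77 (adjusted permutation p = 0.0403). Its r was -0.55 (adjusted permutation p = 0.182), with -0.50 without 2 arrays, and that list had only 3 measured genes.

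**Figure D5:**
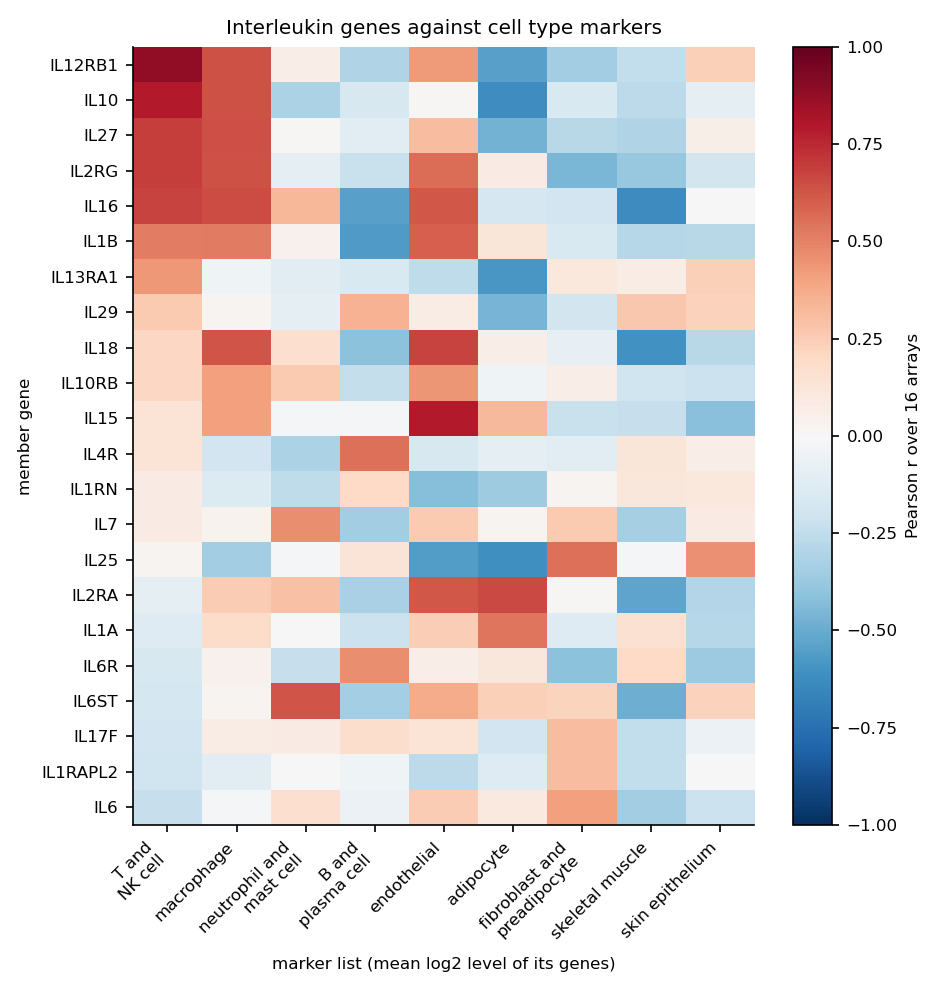
Pearson r over 16 arrays (colour, -1 to 1) between each of 22 genes (rows) and the mean level of 9 marker lists (columns). The darkest cells are IL12RB1 (0.88) and IL10 (0.80) with T and NK cell markers and IL15 with endothelial markers (0.79).

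The pathways through which these receptors act were described from lists of genes. Of 19 measured genes of the JAK and STAT pathway 0 passed for line, with a median of -0.08, and 1 (5.26%, against 5.18% of all probes) passed for set. That was MYC, a growth factor-induced transcription factor, which rose by 0.72 in replicates 5 to 8 (adjusted p = 0.0285 in limma) and passed in 17 of 25 alternative fits. STAT3, the factor most tied to interleukin 6, differed by -0.08 between sets, and SOCS3, which its signal induces, by -0.51 (SE 0.34), and neither passed. For line the smallest p in that list was that of JAK2, at -0.24 (SE 0.11). Of 13 adaptors of the interleukin 1 and Toll receptors and NF-kB genes 0 passed for line or set, with medians of -0.04 and -0.07, and NFKB2 had the smallest p for line at -0.15 (SE 0.08). Of 2 measured genes of interleukin maturation, CASP1 and FURIN, 0 passed for either, and FURIN differed by -0.09 (SE 0.10) between lines.

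Of 7 other ligands and receptors of these families 0 passed for line or set, with CSF3, a granulocyte growth factor, at 0.40 (SE 0.29) for line, and with a median of -0.26 for set. Of 9 acute phase genes, several of which interleukin 6 induces in liver, 0 passed for line or set, with SAA3 at -1.31 (SE 0.66) for line and a median of 0.03 for set. Among the marker lists 0 genes passed for line, the smallest p in each being at GZMK (-0.64), FCRLA (0.63), AIF1 (-0.43), S100A9 (-0.77), CIDEC (0.31), SOX18 (-0.33), DLK1 (0.49), CASQ1 (1.62) and KRT8 (-1.53).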

How the data were processed

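RNA of 16 pigs (150 ng each, labelled with Cy3, per the labels' protocols) was hybridised to Agilent 1-colour arrays. The deposited scanner files hold processed signal intensity, background-corrected by Feature Extraction 10.7.3.1 per the file headers. The deposited value table lists 28963 spots as log2 values that equal the scanner's log2 processed signal minus the median of the array. The submitters' processing notes name R 2.10.0, and its use is not given in the sources used here.

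Here, log2 processed signal minus the 75th percentile of each array was used, spots of a probe averaged and outlier flags left out (2 values among the interleukin probes, both of the IL4R probe starting at 3489, on low-RFI replicate 6 and high-RFI replicate 5, whose fits have n = 14). Probes well above background on at least 8 arrays with 6 or more values in each line were kept (32097 of 43603). limma 3.58.1 in R 4.3.3 fitted line, set with line as covariate, and 4 groups, two-sided, with Benjamini-Hochberg adjustment over all kept probes. Correlations used the probe of a gene with the highest mean signal and two-sided permutation tests with 100000 resamples. On simulated data for the line comparison, with 32097 probes, 46.3% of 1.5-fold, 76.1% of 2-fold and 97.0% of 4-fold changes were recovered. The changed probes were drawn at random from all kept probes, with independent normal noise. The median SD over arrays was 0.30 for all kept probes and 0.47 for the interleukin probes. These rates therefore do not give what could be recovered for the interleukin probes.

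The members and lists were chosen with earlier results of these data known. Named genes were those with the smallest p for line (4), set (4) and the interaction (2), the 6 with the largest SD, the 5 pairs with the largest r, and in each list the smallest p for line. STAT3, SOCS3 and the markers that passed for set were added after their values were seen. Alternatives were normexp (offset 50), quantile and median scaling, other filters, slide and replicate blocks, array weights, the deposited table and leaving out arrays. Same-numbered pigs of the lines did not deviate together (r of deviations -0.30 to 0.32), so the numbers were not used as pairs. Of the gene names, 32 of 38 matched the RefSeq gene table, and names follow the files. Genes written IL-18RA, IL-1beta or IL-5 fall outside the rule and were not analysed here.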

Additional observations from a re-analysis of the deposited data

Results flagged for a closer look

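In 5 of 44 groups of 8 pigs (7 for IL4R), 1 pig stood far from the other 7. The nominal rate of the rule is about 1 in 20. The groups share the same pigs, and the share over all kept probes was not counted, so the number is not read as an excess. IL10 in high-RFI replicate 5 was at -0.99, with the other 7 between -3.60 and -2.41. IL13RA1 in high-RFI replicate 1 was at -3.67, with the others between -2.59 and -1.73. IL1B in low-RFI replicate 4 was at -2.02, with the others between -5.49 and -4.01. IL1RN in the same pig was at -2.93 on the probe starting at 223, with the others between -2.10 and -1.41. The agonist was thus at its highest and the antagonist at its lowest in 1 animal, on that probe only. The IL1RN probe starting at 1187 was at -5.43 in this pig, its highest level among the low-RFI pigs. That probe was well above background on 4 arrays, this one among them. IL1RAPL2 in high-RFI replicate 8 was at -1.93, with the others between -3.69 and -3.01. The causes were not tested.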

How the results depend on the processing

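For line, within sets and for the interaction, 0 of 33 interleukin probes passed under each alternative run. For set, 5 passed, and the count was 0 with normexp background correction, 12 with array weights, 3 of 29 tested in the deposited value table, 0 without the 4 arrays that stood apart (chosen after seeing the data) and 3 to 9 with single arrays left out. Among all probes 1662 passed for set, against 17 with normexp, 5316 with array weights, 865 in the deposited table, 0 without the 4 arrays and 603 to 4790 with single arrays left out. Quantile or median scaling, the slide block and the filter on all 16 arrays gave 5, and no filter gave 4. Of gene pairs 0 passed, but 146 with normexp, where the 5 pairs with the largest r went both ways. There the r of IL29 and IL4R was -0.19, of IL6 and IL6ST -0.11 and of IL16 and IL27 -0.077. The r of IL12RB1 and IL27 rose to 0.97 and that of IL10 and IL12RB1 to 0.88, and these pairs passed. The cause was not tested. With the replicate number as a block, calls for line stayed at 0 of 33, and those of all probes went from 0 to 1 within replicates 1 to 4 and for the interaction. Set could not be fitted with that block, since each number lies in 1 set. By number, 1 of 8 pigs matched its own number best. Of 54 probes, 33 were well above background on 8 or more arrays, 47 on at least 1, and 44 counted as positive and significant on 8 or more.

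The number of arrays limits precision. For 16 genes there was no usable level.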
